A study of Mus musculus with 10 samples.

Results

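The ATF4 amino acid and integrated stress response genes were described in 10 mouse melanoma tumours, 5 of an exercise group and 5 of a non-exercise group. The members were taken from a list of 37 genes of the ATF4 pathway, by the gene symbol that the platform annotation gives to a probe set when it gives only 1. Of the listed genes 35 were measured, each by 1 probe set, among 19938 genes in all, and Pycr1 and Gdf15 were not analysed here. RNA was measured with Affymetrix whole-transcript arrays, 1 per sample. The labels describe every animal as male and every sample as melanoma tumour, and differ by group alone, Exercise or non-Exercise. The series title names voluntary exercise, while for strain, age, the kind of melanoma and the length of exercise the sources used here give nothing. The arrays are called by the numbers of their titles, 300, 301, 306, 309 and 310 for exercise and 326, 327, 329, 330 and 331 for non-exercise. Where 5 values per group follow each other, they stand in that order. Values are log2 signals per probe set, which do not compare one gene with another, and a change is the exercise mean less the non-exercise mean, with its SE after ±. The labels do not tie an array to an animal of its own, so the tests rest on the spread between these arrays, which may be technical, and their number limits the precision.

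The integrated stress response is the answer of cells to shortage of amino acids, to misfolded protein in the endoplasmic reticulum, to viral RNA and to lack of heme. Each of these stresses activates a kinase that phosphorylates the initiation factor eIF2alpha, which lowers translation in general while the mRNA of the transcription factor ATF4 is translated more. ATF4 pairs with C/EBP proteins and other bZIP factors on C/EBP-ATF response elements and raises genes of amino acid synthesis, amino acid uptake and feedback. Tumour cells, melanoma cells included, are known to use this programme when nutrients or oxygen are short. Since much of the control of ATF4 is translational, its transcript and its activity need not move together.

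Most members had lower mean levels in the exercise arrays. At a limma adjusted p under 0.05 over all genes, 12 of 35 members (34.3%) were lower and 2 (5.71%) were higher, while 10.6% of all genes were lower and 6.35% higher. The median log2 change of the members was -0.27, against -0.02 over all genes, and 30 members had a negative change, as did 57.1% of all genes. The members, and the gene lists used further below, were chosen with earlier results of these data known. Their shares beside those of all genes are therefore a description and no independent test. Chac1, Slc1a4, Gpt2, Nupr1, Slc6a9 and Shmt2 fell by 1.43-fold to 1.94-fold. Atf4 itself, Asns, Eif2ak4 and Xpot had changes between -0.02 and -0.01. Complete separation of the groups was not frequent: 3 members, Shmt2, Slc7a5 and Slc3a2, lay lower in all exercise arrays than in any non-exercise array, close to the 8.33% of all genes that did. None lay higher in all exercise arrays, where 3.74% of all genes did. When arrays were aligned by their medians alone, 19 members were lower and none higher (Atf3 and Slc38a2 did not pass), beside 15.4% and 4.7% of all genes.

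**Figure D1:**
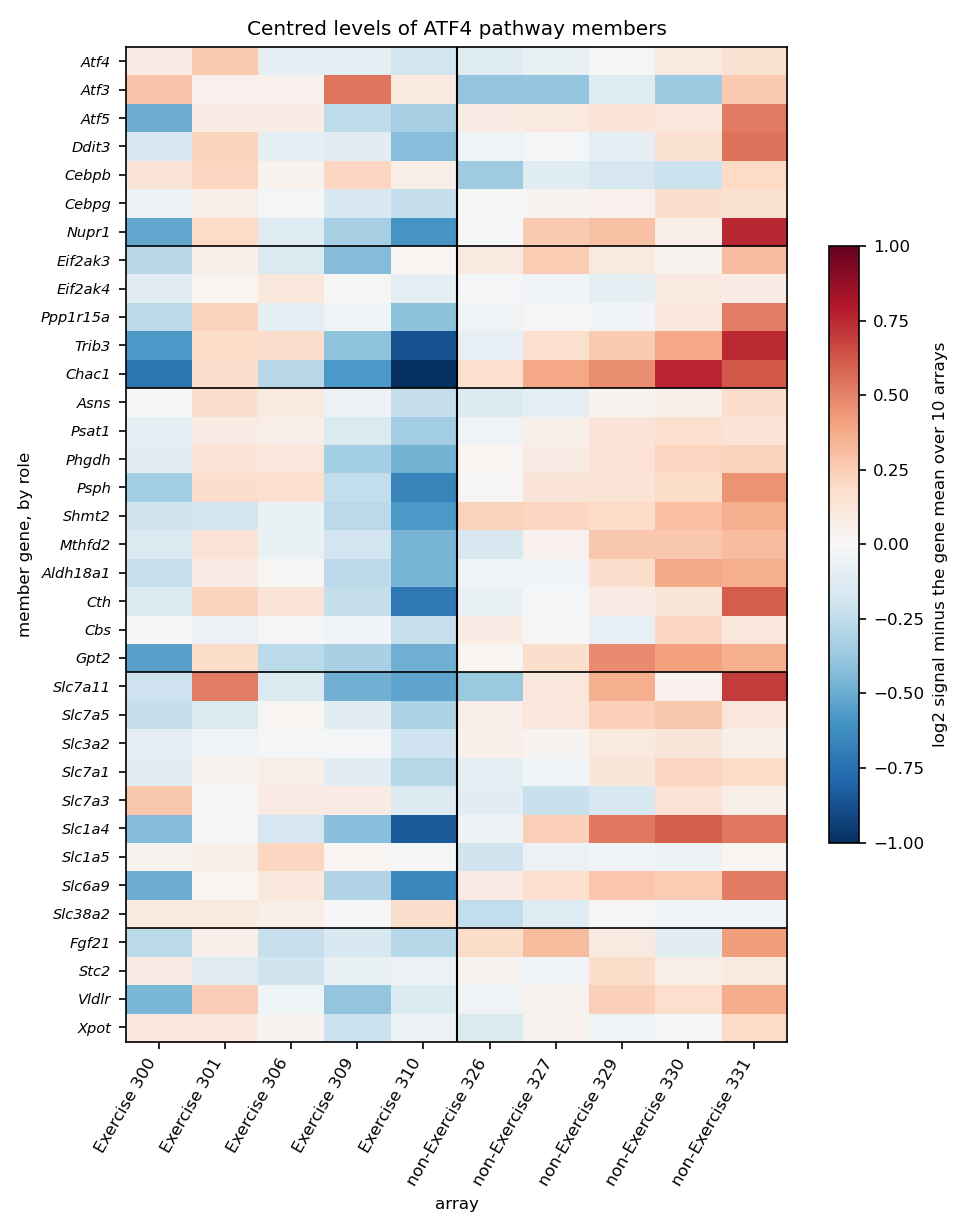
Log2 signal of each of 35 members minus its mean over the 10 arrays (colour, from -1 to 1), with members in rows grouped by role and arrays in columns, exercise left of the line. The exercise arrays 310, 300 and 309 are mostly blue and the non-exercise array 331 mostly red, while Atf3, Cebpb and Slc38a2 run the other way.

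RNA of other cells is part of whole-tumour values, and here fewer cells of a type and less RNA per cell cannot be told apart. Exercise arrays 306, 309 and 310 held liver transcripts: 11 of 13 hepatocyte markers were higher in all 3 of them than in the other 7 arrays, with Alb at 12.28 to 12.97 against 6.84 to 9.22. Macrophage and monocyte markers were higher with exercise, 13 of 14 past the threshold and 6 without overlap, beside 6.35% and 3.74% of all genes. Of the 10 melanocytic markers, which check the labelled tissue, none passed. Tyr, the enzyme that starts melanin synthesis, lay between 11.74 and 12.16, with a difference of -0.17 (limma adjusted p = 0.0598) that passed without 310 of exercise (limma adjusted p = 0.014). Sox10, a factor of the melanocyte lineage, had a difference of -0.14 (limma adjusted p = 0.0935) that passed without 306 of exercise (limma adjusted p = 0.0283) and without the 3 arrays with liver transcripts (-0.22, limma adjusted p = 0.0264). None of 10 skeletal muscle and 8 keratinocyte markers passed, and 1 of 9 adipocyte markers, Retn, was higher (limma adjusted p = 0.0458). Its call was lost without 300, 309 or 310 of exercise or 326, 327, 330 or 331 of non-exercise (limma adjusted p up to 0.117). Retn did not pass without the 3 arrays with liver transcripts either (limma adjusted p = 0.256). Itgam, a macrophage integrin, rose by 1.43 on the log2 scale, and the defining adipocyte, muscle and keratinocyte markers Adipoq, Acta1 and Krt14 had differences of 0.83, 0.12 and -0.11 that did not pass. The mean centred level of the muscle list ran from -1.1 to 1.46 in exercise and from -0.60 to 0.19 in non-exercise arrays, and that of the adipocyte list from -0.76 to 1.396 and from -0.80 to 0.34. The part of these cells in the members' values was not tested, and the fits given below do not measure it. Each fit without the 3 arrays with liver transcripts set 2 exercise arrays against 5 non-exercise arrays. Whether a call lost there depends on liver RNA or on fewer arrays was not tested.

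The annotated promoters of the members show the kind of element through which ATF4 is known to act, and are printed because the members were listed for that control. The core of the C/EBP-ATF response element, TGATGNAA, was searched on both strands in windows of 300 bases, from 250 bases before the annotated start to 50 bases from the start on (RefSeq, build GRCm38.p6). Of 31 measured members with a window, 9 (29.0%) held it, against 4.51% of 27025 genes. Slc7a3, Slc7a5, Slc1a5 and Cth had no entry. In the sequences below, each read 5′ to 3′ on the strand of its gene, the core is in capitals, and it reads TTGCATCA where it lies on the other strand. The segments end 30 bases from the start on at most.
Chac1, chr2:119351023-119351082, plus strand: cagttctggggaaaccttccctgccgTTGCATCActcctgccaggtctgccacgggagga
Slc1a4, chr11:20332684-20332743, minus strand: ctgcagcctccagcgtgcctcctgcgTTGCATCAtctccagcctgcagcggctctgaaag
Nupr1, chr7:126625547-126625606, minus strand: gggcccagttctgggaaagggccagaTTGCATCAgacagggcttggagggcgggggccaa
Fgf21, chr7:45615596-45615655, minus strand: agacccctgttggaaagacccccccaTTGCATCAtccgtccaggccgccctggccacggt
Trib3, chr2:152344031-152344072, minus strand: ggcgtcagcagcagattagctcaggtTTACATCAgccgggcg
Slc7a11, chr3:50443646-50443705, minus strand: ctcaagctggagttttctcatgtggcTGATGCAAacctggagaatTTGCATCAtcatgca
Vldlr, chr19:27216794-27216853, plus strand: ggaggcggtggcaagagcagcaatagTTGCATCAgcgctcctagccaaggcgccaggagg
Asns, chr6:7693199-7693258, minus strand: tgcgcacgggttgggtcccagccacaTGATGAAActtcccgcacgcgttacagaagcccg
Atf3, chr1:191183410-191183469, minus strand: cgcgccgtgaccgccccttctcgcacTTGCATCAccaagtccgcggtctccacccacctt

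Chac1, Nupr1, Fgf21, Slc1a4, Vldlr and Atf3 carried the same 8 letters, and so did Slc7a11, on both strands. Trib3 carried TTACATCA and Asns TGATGAAA. The core began 193 bases before the start in Chac1, 200 in Vldlr, 139 in Fgf21, 110 in Nupr1 and in Atf3, 23 in Asns and 4 in Slc1a4, and in Slc7a11 66 and 47 bases before it. That of Trib3 began 14 bases after the start. The members with the core did not all move one way: 4 were lower, 1 was higher and 4 did not pass, with a median log2 change of -0.36. Of the 22 members without these letters in the window, 7 were lower, 1 was higher and 14 did not pass, with a median of -0.20. The shares over all genes were 10.6% lower and 6.35% higher. The core of the endoplasmic reticulum stress element, CCAAT and CCACG with 9 bases between them on either strand, was in none of the 31 members and in 0.137% of genes. A match describes the letters of a window and is not a measured binding site.

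**Figure D2:**
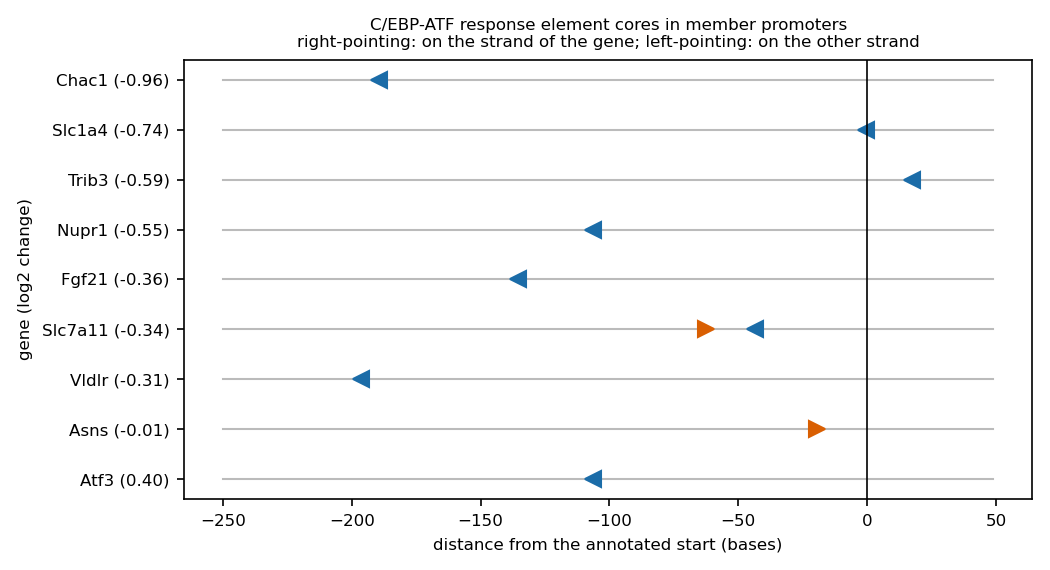
Position of each TGATGNAA core (triangle) relative to the annotated start (vertical line, in bases) for the 9 members that hold it, ordered by log2 change, which is given beside each name. Most cores lie on the strand opposite to the gene, and the genes range from Chac1 at -0.96 to Atf3 at 0.40.

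Among the transcription factors, Nupr1 and Atf5 were lower, Atf3 was higher, and Atf4, Ddit3, Cebpb and Cebpg did not pass. Atf4 lay at 11.80, 11.98, 11.63, 11.62 and 11.54 in the exercise arrays and at 11.61, 11.65, 11.71, 11.82 and 11.88 in the non-exercise arrays. The groups overlapped over nearly their whole range, with a log2 change of -0.02 ± 0.08 and a 95% interval from -0.19 to 0.16 (limma adjusted p = 0.945). Nupr1, a small stress-induced chromatin protein, lay at 10.31, 11.02, 10.70, 10.49 and 10.23 and at 10.83, 11.09, 11.12, 10.89 and 11.58. Array 301 reached into the non-exercise range while 310 and 300 lay lowest, and the change was -0.55 ± 0.15 (limma adjusted p = 0.0238). Atf5, a bZIP factor that is translated under stress as ATF4 is, lay at 9.44, 10.004, 9.997, 9.67 and 9.59 and at 9.999, 10.03, 10.05, 10.03 and 10.45. Array 301 met the lowest non-exercise array, 326, with 306 just below it, 331 stood above the rest, and the change was -0.37 ± 0.12 (limma adjusted p = 0.0446). Atf3, a bZIP factor induced by many stresses and in activated macrophages, lay at 10.50, 10.26, 10.26, 10.75 and 10.32 and at 9.82, 9.83, 10.09, 9.85 and 10.48. Only array 331 of the non-exercise group reached the exercise range, and the change was 0.40 ± 0.13 (limma adjusted p = 0.0446). Ddit3, which encodes CHOP, lay at 9.89, 10.26, 9.95, 9.93 and 9.62 and at 9.999, 10.03, 9.95, 10.20 and 10.59. The ranges overlapped, and its change of -0.22 ± 0.13 did not pass (limma adjusted p = 0.285). Cebpb and Cebpg, partners of ATF4, had changes of 0.26 and -0.16 that did not pass (limma adjusted p = 0.0823 and 0.167).

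The calls of Nupr1, Atf5 and Atf3 depended on single arrays. Nupr1 lost its call without 300 or 310 of exercise or 329 of non-exercise (limma adjusted p between 0.00334 and 0.0588 with 9 arrays), Atf5 without 300, 309 or 310 of exercise or 326, 327, 329, 330 or 331 of non-exercise (0.0179 and 0.104), and Atf3 without 300, 309 or 310 of exercise or 326, 327, 329 or 330 of non-exercise (0.00538 and 0.116). Cebpb passed without 331 of non-exercise (limma adjusted p = 0.011). Macrophage markers were higher in the exercise arrays too. With the macrophage score as a covariate the changes of Atf3, Nupr1 and Atf5 were 0.12, -0.19 and -0.08, none past the threshold. That covariate left 0.135% of all genes lower and 0.0602% higher.

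Chac1 had the largest fold of all 35 members. It encodes a gamma-glutamylcyclotransferase that degrades glutathione and is a target of ATF4 and CHOP. Its probe set (10474972) lay at 10.33, 11.23, 10.78, 10.48 and 10.06 in the exercise arrays and at 11.21, 11.44, 11.52, 11.81 and 11.67 in the non-exercise arrays. Exercise array 301, the highest of its group, lay level with non-exercise array 326, the lowest of its group, and the other exercise arrays lay below all non-exercise arrays. The mean was 10.58 ± 0.45 against 11.53 ± 0.23 (SD, n = 5 each), which is 1.94-fold lower and -0.96 ± 0.17 as a log2 change (limma adjusted p = 0.0023). The call held without any 1 array, with adjusted p between 0.000127 and 0.00901, and without the 3 arrays with liver transcripts (-0.75, limma adjusted p = 0.0231). The 250 bases before its start, with the core in capitals (chr2:119350992-119351241, plus strand), are as follows.
Chac1 upstream: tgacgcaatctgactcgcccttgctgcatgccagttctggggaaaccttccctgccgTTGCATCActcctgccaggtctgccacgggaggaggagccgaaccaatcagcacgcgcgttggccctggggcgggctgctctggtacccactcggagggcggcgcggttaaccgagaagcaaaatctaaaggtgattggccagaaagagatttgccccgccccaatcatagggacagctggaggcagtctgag

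Trib3, a pseudokinase that binds ATF4 and dampens it, lay at 9.22, 9.99, 9.97, 9.39 and 8.92 and at 9.71, 9.95, 10.05, 10.18 and 10.54. Arrays 310, 300 and 309 lay below all non-exercise arrays while 301 and 306 lay among them, and the change of -0.59 ± 0.20 did not pass (limma adjusted p = 0.054). It passed without 301 or 306 of exercise or 326 of non-exercise, with adjusted p from 0.0156. Ppp1r15a, which encodes GADD34 and directs the phosphatase that resets eIF2alpha, had a change of -0.23 ± 0.12 that did not pass (limma adjusted p = 0.252). Eif2ak3, which encodes PERK, the kinase of the endoplasmic reticulum, lay at 9.76, 10.10, 9.90, 9.61 and 10.07 and at 10.14, 10.30, 10.14, 10.08 and 10.35. Array 301 lay just above the lowest non-exercise array, 330, and the other exercise arrays lay below it, with a change of -0.31 ± 0.09 (limma adjusted p = 0.0349). This call was lost without 300, 306 or 309 of exercise or 326, 327, 329 or 331 of non-exercise (limma adjusted p between 0.0151 and 0.0885 with 9 arrays). Eif2ak4, which encodes GCN2, the kinase that senses uncharged tRNA, had a change of -0.02 ± 0.06, with all arrays between 10.47 and 10.69.

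**Figure D3:**
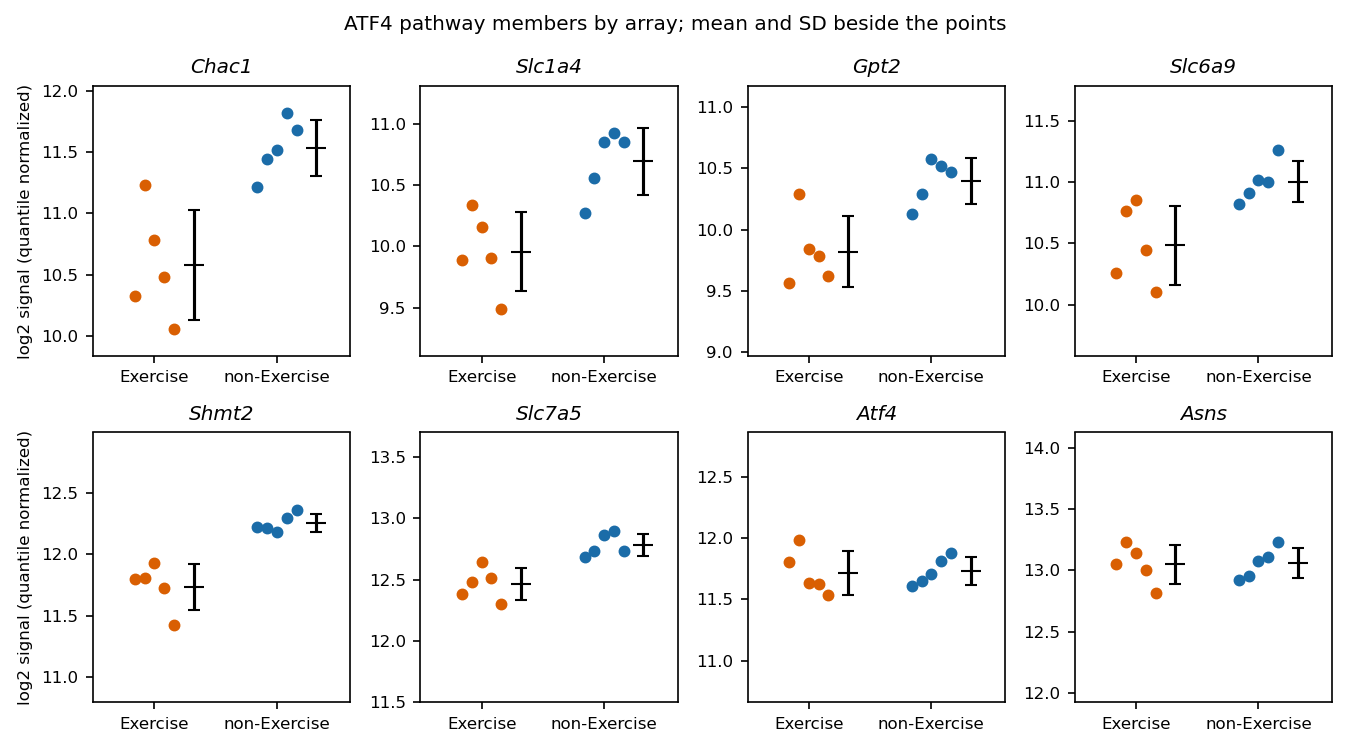
Log2 signal in each array (points; y axes of equal length per gene, not starting at 0) of 6 members that were lower at every choice of 9 arrays, and of Atf4 and Asns, with the mean and SD of 5 arrays beside the points. The exercise arrays of Shmt2 and Slc7a5 lie below all non-exercise arrays, those of Chac1 meet them at 1 array, and those of Atf4 and Asns overlap throughout.

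All 10 measured enzymes of amino acid and one-carbon metabolism had negative changes, and 3 of them passed, Shmt2, Gpt2 and Aldh18a1. Of all genes, 57.1% had negative changes and 10.6% were lower. Shmt2 makes glycine and one-carbon units from serine in mitochondria. Its probe set (10373202) lay at 11.80, 11.81, 11.93, 11.72 and 11.43 in the exercise arrays and at 12.23, 12.21, 12.18, 12.29 and 12.36 in the non-exercise arrays. All exercise values were below all non-exercise values, with a change of -0.52 ± 0.08 (limma adjusted p = 0.000652). Gpt2, the mitochondrial alanine aminotransferase, lay at 9.56, 10.29, 9.84, 9.78 and 9.62 and at 10.13, 10.29, 10.58, 10.52 and 10.47. Only array 301 reached the non-exercise range, and the change was -0.58 ± 0.13 (limma adjusted p = 0.00668). Aldh18a1, which starts proline synthesis from glutamate, lay at 11.55, 11.85, 11.78, 11.51 and 11.31 and at 11.75, 11.75, 11.95, 12.16 and 12.14. Arrays 301 and 306 lay within the non-exercise range, with a change of -0.35 ± 0.11 (limma adjusted p = 0.0361). Shmt2 and Gpt2 kept their calls without any 1 array, and Aldh18a1 lost its call without 300, 309 or 310 of exercise or 329, 330 or 331 of non-exercise (limma adjusted p between 0.0128 and 0.0958 with 9 arrays). Without the 3 arrays with liver transcripts Shmt2 passed (-0.45), while Gpt2 (-0.47, limma adjusted p = 0.083) and Aldh18a1 (-0.25, limma adjusted p = 0.194) did not.

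The enzymes that make serine from a glycolytic intermediate did not pass. Phgdh, Psat1 and Psph, which act in this order, had changes of -0.27 ± 0.10, -0.17 ± 0.07 and -0.37 ± 0.14 (limma adjusted p = 0.0909, 0.128 and 0.0933). Phgdh and Psph passed without 301 or 306 of exercise (limma adjusted p from 0.0296 and 0.0288). Mthfd2, which follows Shmt2 in the mitochondrial folate path, had a change of -0.29 ± 0.11 that did not pass (limma adjusted p = 0.0752) but passed without 301 of exercise or 326 of non-exercise (limma adjusted p from 0.0197). Asns, the asparagine synthetase and a standard readout of ATF4, lay at 13.05, 13.23, 13.14, 13.004 and 12.81 and at 12.92, 12.96, 13.08, 13.10 and 13.23. The groups overlapped over most of their range, with a change of -0.01 ± 0.07 and a 95% interval from -0.17 to 0.15 (limma adjusted p = 0.958). Cbs and Cth, the enzymes that turn homocysteine into cysteine, had changes of -0.13 ± 0.08 and -0.29 ± 0.16 (limma adjusted p = 0.315 and 0.252). For Cth, arrays 310 at 9.70 and 331 at 11.02 were the extremes.

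**Figure D4:**
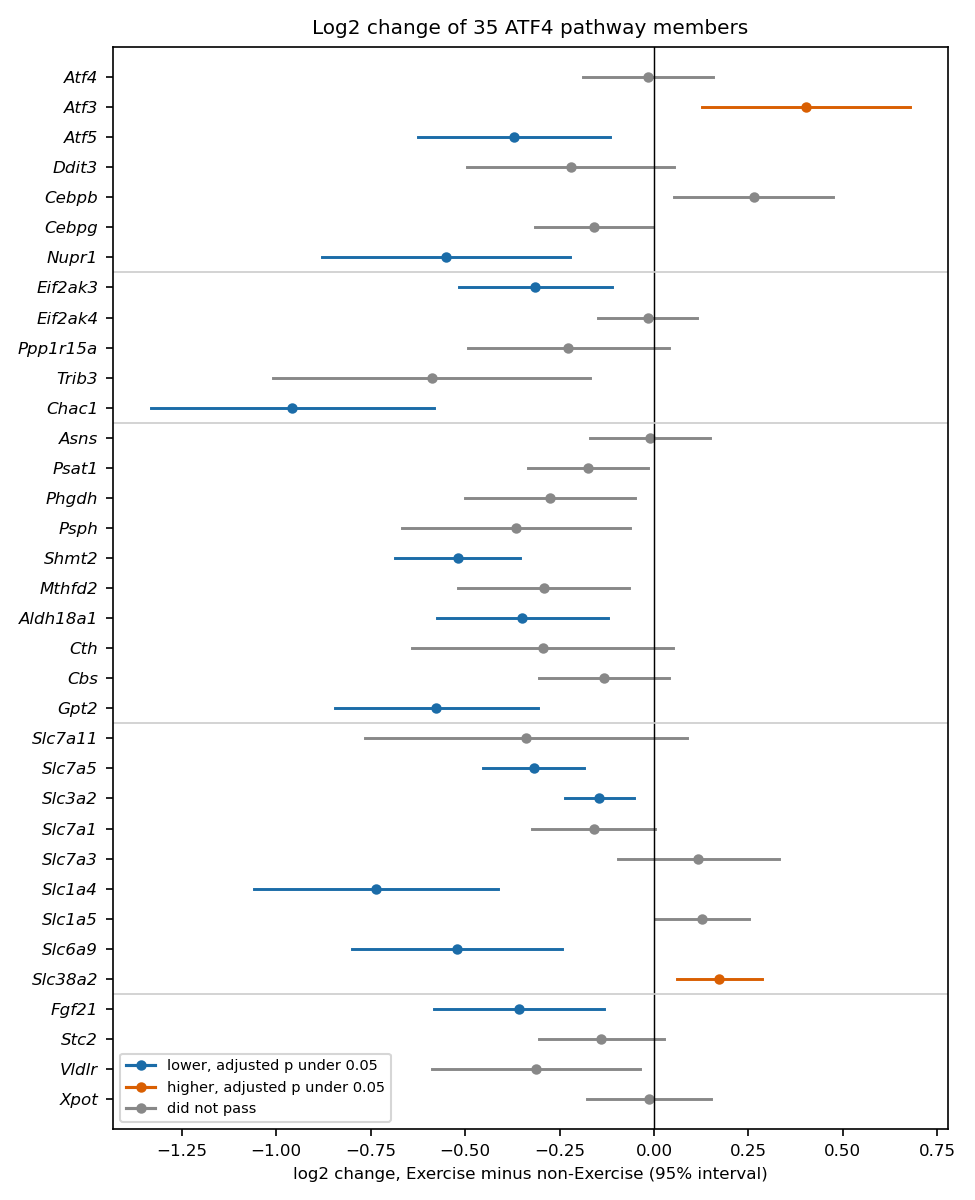
Log2 change of each of 35 members (points) with its 95% interval (lines), grouped by role between the grey lines; blue is lower and orange higher at a limma adjusted p under 0.05, and grey did not pass. The points run from Chac1 at -0.96 to Atf3 at 0.40.

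Transporters moved in both directions. Of 9, Slc1a4, Slc6a9, Slc7a5 and Slc3a2 were lower, Slc38a2 was higher and 4 did not pass, beside 10.6% lower and 6.35% higher of all genes. Slc1a4, a carrier of serine, alanine and other small neutral amino acids, lay at 9.89, 10.34, 10.16, 9.91 and 9.49 in the exercise arrays and at 10.27, 10.56, 10.85, 10.93 and 10.85 in the non-exercise arrays (probe set 10384539). Array 301 alone lay above the lowest non-exercise array, 326, and the change was -0.74 ± 0.15 (limma adjusted p = 0.00461). Slc6a9, the glycine transporter GlyT1, lay at 10.25, 10.76, 10.85, 10.44 and 10.10 and at 10.82, 10.91, 11.02, 10.999 and 11.26. Here 306 alone lay above 326, the lowest non-exercise array, and the change was -0.52 ± 0.13 (limma adjusted p = 0.014). Slc7a5 (LAT1), which brings in leucine and other large neutral amino acids, lay at 12.38, 12.48, 12.64, 12.51 and 12.30 and at 12.69, 12.74, 12.86, 12.89 and 12.73. Its groups did not overlap, with a change of -0.32 ± 0.06 (limma adjusted p = 0.0036). Slc3a2, the heavy chain that LAT1 and xCT share, lay at 13.27, 13.32, 13.34, 13.35 and 13.15 and at 13.41, 13.39, 13.46, 13.48 and 13.42. The groups did not overlap, though the shift was small, -0.14 ± 0.04 (limma adjusted p = 0.0304). Slc38a2 (SNAT2), which takes up glutamine and other neutral amino acids and is induced by amino acid shortage, lay at 12.77, 12.77, 12.74, 12.67 and 12.85 and at 12.42, 12.54, 12.69, 12.63 and 12.65. Array 329 alone of the non-exercise group lay above the lowest exercise array, 309, with a change of 0.17 ± 0.05 (limma adjusted p = 0.0371).

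Slc1a4, Slc6a9 and Slc7a5 passed without any 1 array and also without the 3 arrays with liver transcripts (-0.58, -0.49 and -0.35). Slc3a2 lost its call without 300 of exercise or 326, 329 or 330 of non-exercise (limma adjusted p between 0.0283 and 0.0743 with 9 arrays). Slc38a2 lost it without 300, 301, 306 or 310 of exercise or 326, 327 or 330 of non-exercise (limma adjusted p between 0.0325 and 0.0991). Slc7a11, the cystine carrier xCT, had the widest spread in the non-exercise group, at 10.12, 10.84, 10.18, 9.84 and 9.80 and at 9.96, 10.44, 10.69, 10.37 and 11.02. Its change of -0.34 ± 0.20 did not pass (limma adjusted p = 0.295), although it did without 301 of exercise (limma adjusted p = 0.0426). The glutamine carrier Slc1a5 (ASCT2) had a change of 0.13 ± 0.06, and Slc7a1 and Slc7a3, carriers of arginine and lysine, of -0.16 ± 0.08 and 0.12 ± 0.10 (limma adjusted p = 0.162, 0.179 and 0.506). Slc7a3 was the only member among the dimmest 0.25 of genes.

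Of the secreted factors and remaining members, Fgf21 alone passed. This hormone, made chiefly by liver and also by stressed tissues, lay at 8.35, 8.67, 8.39, 8.47 and 8.34 in the exercise arrays and at 8.81, 8.94, 8.71, 8.51 and 9.04 in the non-exercise arrays. Array 301 alone of the exercise group lay within the non-exercise range, and the change was -0.36 ± 0.11 (limma adjusted p = 0.0316). Arrays 306, 309 and 310, with the liver transcripts, lay between 8.34 and 8.47. The call was lost without 300, 306, 309 or 310 of exercise or 326, 327, 329 or 331 of non-exercise (limma adjusted p between 0.0143 and 0.0822 with 9 arrays). Vldlr, a lipoprotein receptor, had a change of -0.31 ± 0.13 that did not pass (limma adjusted p = 0.116) but passed without 301 of exercise (limma adjusted p = 0.0212). Stc2, the secreted stanniocalcin 2, had a change of -0.14 ± 0.08, and Xpot, which exports tRNA from the nucleus, one of -0.01 ± 0.08 (limma adjusted p = 0.26 and 0.95).

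Leaving out single arrays changed the number of lower members by more than 1.5 times in 2 cases. The count of 12 became 6 without exercise array 300 and 6 without non-exercise array 329. It was 18 without exercise array 301, which held the highest member levels of its group. The count of 2 higher members was 0 when 300 or 310 of exercise, or 326, 327 or 330 of non-exercise, was left out. It was 1 when 301, 306 or 309 of exercise, or 329 of non-exercise, was left out, and 3 without 331. Chac1, Shmt2, Gpt2, Slc7a5, Slc1a4 and Slc6a9 were lower in each of these fits. The scaling and the variance model also ended calls. On the table as deposited 12 members were lower and 2 higher (10.4% and 6.87% of all genes), but Slc3a2, Slc38a2 and Fgf21 did not pass (limma adjusted p = 0.0615, 0.0522 and 0.0732), while Cebpb, Trib3 and Mthfd2 did. Without the intensity trend Slc3a2, Slc38a2, Atf3, Atf5 and Aldh18a1 did not pass (limma adjusted p = 0.125, 0.102, 0.065, 0.0625 and 0.0632). Robust variances ended the calls of Atf3, Nupr1 and Aldh18a1 (limma adjusted p = 0.0725, 0.0832 and 0.0696), and array weights those of Atf5 and Aldh18a1 (limma adjusted p = 0.0578 and 0.0835).

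The arrays of a group differed in how low the members were. The mean of the members' levels, each centred on its mean over the 10 arrays, was -0.18, 0.10, -0.01, -0.17 and -0.34 in the exercise arrays and -0.05, 0.05, 0.12, 0.15 and 0.32 in the non-exercise arrays. Array 310 was lowest and 331 highest, and exercise array 301 lay above non-exercise arrays 326 and 327. The same mean over the macrophage and monocyte markers was 0.62, -0.22, 0.19, 1.01 and 0.99 and -0.59, -0.30, -0.36, -0.88 and -0.46. Exercise arrays 309, 310 and 300, with the lowest member means, held the highest macrophage means, and array 301 had the highest member mean and the lowest macrophage mean of its group. This was not particular to the macrophage list. The adipocyte mean was 0.71, -0.76, -0.21, 0.48 and 1.396 and -0.62, 0.02, 0.34, -0.80 and -0.56. In the exercise arrays its order was the exact reverse of the member order, and in the non-exercise arrays it was not. The hepatocyte mean was -0.74, -0.69, 1.56, 1.59 and 0.96 and -0.65, -0.60, -0.51, -0.65 and -0.28. Arrays 310 and 309, low in the members, held raised liver transcripts, as did array 306 with members near the overall mean. Array 300, also low in the members, did not hold them. How the RNA of these cells goes with the member levels was not tested. The melanocytic mean stayed between -0.08 and 0.08 in all arrays.

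**Figure D5:**
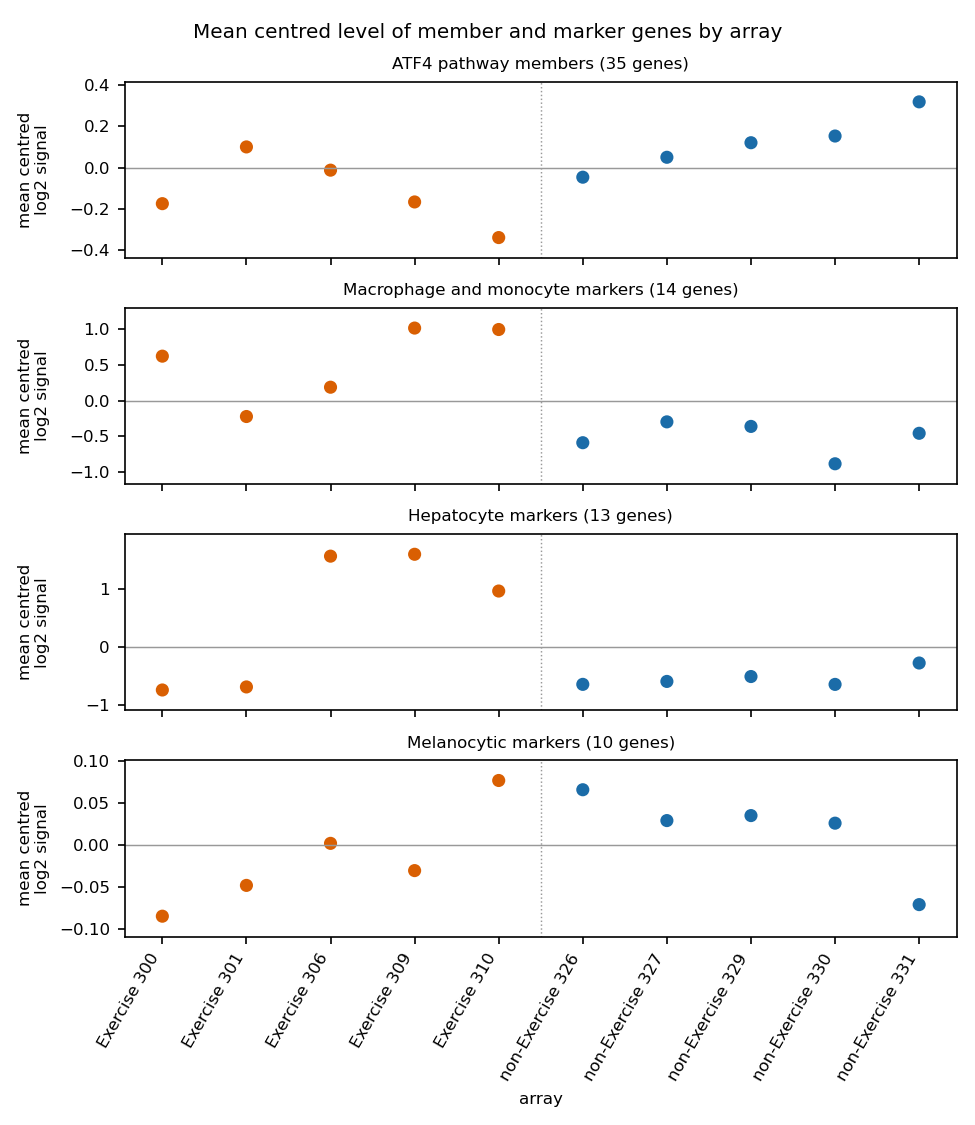
Mean of the log2 signals, each centred on the gene's mean over the 10 arrays, for the 35 members and for 3 lists of cell type markers (y axes, with different ranges), by array (x axis, exercise left of the dotted line). Exercise arrays 300, 309 and 310 are low in the members and high in the macrophage markers, and arrays 306, 309 and 310 are high in the hepatocyte markers. Among the non-exercise arrays, 326 is lowest and 331 highest in the members, while 330 is lowest and 327 highest in the macrophage markers.

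The counts were taken again with the hepatocyte, macrophage and melanocytic markers in view. No fit took the adipocyte mean as a covariate. Without the 3 arrays with liver transcripts, 5 members were lower and 0 higher by limma (8.06% and 3.74% of all genes), with a median change of -0.13 and 0.01 over all genes. All 3 are exercise arrays, so this fit set 2 exercise arrays against 5 non-exercise arrays. Atf5 and Slc38a2 lost their calls although their changes were slightly larger (-0.39 and 0.18) than with all arrays (-0.37 and 0.17). The changes of Atf3, Nupr1, Eif2ak3, Aldh18a1, Gpt2, Slc3a2 and Fgf21, which lost theirs too, were smaller. Whether these losses depend on liver RNA or on fewer arrays was not tested. The 5 lower members were Chac1, Shmt2, Slc7a5, Slc1a4 and Slc6a9. With the hepatocyte mean as a covariate 6 were lower and 0 higher (7.19% and 3.05% of all genes), these 5 and Gpt2. With the macrophage mean as a covariate no member passed, the median change of the members was 0.06, and 0.135% of all genes were lower and 0.0602% higher. The macrophage mean itself did not overlap between the groups. In that fit Chac1 had a change of -0.22 (limma adjusted p = 0.709), Shmt2 of -0.30 (limma adjusted p = 0.315) and Slc1a4 of -0.24 (limma adjusted p = 0.717). With the melanocytic mean as a covariate 18 members were lower and 0 higher (10.1% and 7.04% of all genes): Ddit3, Ppp1r15a, Trib3, Phgdh, Psph, Mthfd2 and Cth passed as lower, and Eif2ak3, Atf3 and Slc38a2 no longer passed. Since the macrophage mean did not overlap between the groups, its fit cannot tell macrophage RNA from group, and few of all genes passed in it. How much of the lower member levels goes with more macrophage RNA was not tested.

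Other genes of the pathway, from lists outside the members, moved in both directions. Of 14 further ATF4 targets, 4 were lower, 3 were higher and 7 did not pass, with a median log2 change of -0.11. The shares over all genes were 10.6% lower and 6.35% higher. Ddit4, which restrains mTORC1, lay at 10.18, 10.52, 10.29, 10.29 and 10.23 in the exercise arrays and at 11.37, 11.19, 11.39, 11.51 and 11.51 in the non-exercise arrays. The groups lay apart, with a change of -1.09 ± 0.08 (limma adjusted p = 6.09e-06), and with the macrophage mean as a covariate it still passed, at -0.87 (limma adjusted p = 0.00636). Sesn2, a sensor of leucine that also restrains mTORC1, lay at 9.37, 9.79, 9.57, 9.63 and 9.19 and at 10.16, 10.35, 10.31, 10.69 and 10.41. It did not overlap either, with a change of -0.87 ± 0.12 (limma adjusted p = 0.000306), and with the macrophage mean as a covariate it did not pass (-0.53, limma adjusted p = 0.193). Neither gene held the TGATGNAA core in its window. Got1, the cytosolic aspartate aminotransferase, and Slc7a6, a carrier of basic and neutral amino acids, were higher in all exercise arrays than in any non-exercise array, by 0.30 ± 0.04 and 0.19 ± 0.05 (limma adjusted p = 0.000266 and 0.0116), and neither passed with that covariate (limma adjusted p = 0.0789 and 0.371). Of the 14, Ddit4 alone passed with it, where 0.135% of all genes were lower and 0.0602% higher. A call lost in that fit therefore says little about a single gene.

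Of 11 cytosolic aminoacyl-tRNA synthetases known as ATF4 targets, all had negative changes and 3 passed: Yars at -0.36 ± 0.06, Nars at -0.29 ± 0.07 and Wars at -0.26 ± 0.06 (limma adjusted p = 0.00199, 0.0111 and 0.0123). For this list and those that follow, 57.1% of all genes had negative changes, 10.6% were lower and 6.35% higher. Without the 3 arrays with liver transcripts Nars did not pass (-0.17, limma adjusted p = 0.148). With the macrophage mean as a covariate none of Yars, Nars and Wars did (limma adjusted p = 0.462, 0.722 and 0.692). That covariate left 0.135% of all genes lower and 0.0602% higher. Of 9 genes of eIF2 and its exchange factor, 3 were lower, Eif2s2 (-0.22), Eif2b4 (-0.31) and Eif2b2 (-0.22). Both probe sets of Eif2s2 were lower, but its call was lost without the 3 arrays (-0.16, limma adjusted p = 0.152), and with the macrophage covariate none of these genes passed (limma adjusted p = 0.376, 0.436 and 0.864 in the same order). Eif2b4 lost its call without 326, 327 or 329 of non-exercise and Eif2b2 without 300, 309 or 310 of exercise or 326, 327, 329 or 330 of non-exercise (limma adjusted p up to 0.0582 and 0.0951). Ppp1r15b had 2 probe sets that disagreed, with the brighter at -0.14 and not past the threshold and the other at -0.35 (limma adjusted p = 0.387 and 0.0108). Of 9 serine, glycine and folate genes outside the members, Sardh, which degrades sarcosine, was lower (-0.47 ± 0.06, limma adjusted p = 0.000262) and 8 did not pass. With the macrophage covariate Sardh did not pass either (limma adjusted p = 0.149).

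The chaperone arm of the unfolded protein response, driven by ATF6 and XBP1, had a median change of -0.10. The median over all genes was -0.02, with 10.6% lower and 6.35% higher. Of 17 genes 4 were lower, 1 was higher and 12 did not pass, among them Hspa5, which encodes the chaperone BiP (-0.07 ± 0.05, limma adjusted p = 0.379). Atf6 itself was lower, at -0.20 ± 0.06 (limma adjusted p = 0.0487). Its call was lost without 300, 306 or 309 of exercise or 326, 327, 330 or 331 of non-exercise (limma adjusted p up to 0.122). Sdf2l1, a partner of BiP, changed by -0.44 ± 0.05 with no overlap (limma adjusted p = 0.000202), and Ern1, which encodes the sensor IRE1alpha, by 0.36 ± 0.09 (limma adjusted p = 0.0134). Dnajb9, a target of XBP1, changed by -0.40 ± 0.11 (limma adjusted p = 0.0254), a call that did not hold without 300, 306 or 309 of exercise or 326, 327, 329 or 331 of non-exercise (limma adjusted p up to 0.0624). Pdia4, a disulphide isomerase, changed by -0.15 on its brighter probe set and by 0.03 on the other, and the call of the brighter was lost without 300, 306 or 309 of exercise or 326, 327, 329 or 331 of non-exercise (limma adjusted p up to 0.109). Without the 3 arrays with liver transcripts Ern1, Dnajb9, Pdia4 and Atf6 did not pass (limma adjusted p = 0.0574, 0.132, 0.209 and 0.107). With the macrophage covariate none of the 17 genes passed, while 0.135% of all genes were lower and 0.0602% higher. Sdf2l1 had a change of -0.45 there (limma adjusted p = 0.0643). The difference between the lists was not tested.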

How the data were processed

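The authors deposited 1 table of log2-scale values per probe set for 10 arrays. Per the submitters' processing notes they used PLIER, and the sources used here do not give its version, the log base, the scaling between arrays or the genome build. The log2 scale is taken from the range of the table, 4.66 to 14.55. The labels' protocols name 2 alternative RNA kits without saying which tumour had which, so the kit could not be tested as a batch.

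Array medians differed by 0.126, so the values were quantile normalized with limma 3.58.1 (R 4.3.3). Of 35556 probe sets, 21789 had 1 gene symbol, 1621 several and 12146 none, and 21698 matched an Entrez identifier in the GRCm38.p6 table without a change of symbol. The brightest probe set by mean stood for each of 999 genes with more than 1. The test was limma's lmFit with eBayes and a trend on intensity, two-sided, with Benjamini-Hochberg adjustment over 19938 genes at 0.05, 5 arrays against 5. Marker means were the mean centred log2 levels of each list. No pair of arrays shared more than 1 identical value, and pairs correlated at 0.960 to 0.996 across genes. The code was checked on simulated data. Figures used Python 3.11.15 and matplotlib 3.10.9.

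The members and lists were chosen with earlier results of these data known. Named genes are all members and, of each further list, up to 4 that passed with the smallest p, with the defining cell type markers. Hspa5, Atf6, Ppp1r15b, Sox10 and Retn were added after their values were seen. Alternatives were the table as deposited, median centring, a filter on the dimmest 0.25 of genes, the mean of probe sets, other variance models, array weights, a threshold of 0.10, 3 marker covariates, and leaving out arrays. Of the lists, some genes, among them Eif2s1, Pycr3, Aars, Serpina1a, Serpina1b and Cfd were not analysed here.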

Additional observations from a re-analysis of the deposited data

Results flagged for a closer look

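A sample stood apart from the other 4 of its group, by the gap to its nearest neighbour over the range of the group, in 6 of 134 groups of 5 values. Chance gives about 1 in 20, so these flags are about as many as chance alone would give. They are not independent, since the mean of the transcription factors includes Atf5. Non-exercise array 331 was high in 4 of these: Atf5 at 10.45 against 9.999 to 10.055 in the other non-exercise arrays, Ppp1r15a at 10.34 against 9.79 to 9.94, Cth at 11.02 against 10.35 to 10.53, and the mean of the transcription factors at 0.37 against -0.12 to 0.01. Exercise array 310 was low for Cbs, at 8.40 against 8.57 to 8.63. Exercise array 306 was high for Eif2b4, at 9.97 against 9.72 to 9.78.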

How the results depend on the processing

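The number of arrays limits what these fits can tell, and signal over background could not be judged because no background values were used here. Across the alternatives, 593 refitted member changes kept their direction and their side of the threshold, 98 kept the direction and lost the call, 36 gained one, and 42 turned sign. Members lower in exercise numbered 12, and 19 after median centring, 5 without the 3 arrays with liver transcripts, 6 with the hepatocyte covariate, 0 with the macrophage covariate and 18 with the melanocytic covariate, and 6 to 18 leaving out 1 array. Members higher numbered 2, and 0 after median centring, without the intensity trend, without the 3 arrays and with the hepatocyte, macrophage or melanocytic covariate, 1 with robust variances, and 0 to 3 leaving out 1 array. Median centring raised the share of genes lower in exercise to 15.4% and left 4.7% higher, so that 23.4% of called genes were higher, in place of 37.4%. Genes higher over all numbered 1266, and 746 without the 3 arrays, 608 with the hepatocyte and 12 with the macrophage covariate. Genes lower over all numbered 2118, and 27 with the macrophage covariate. Leaving out 1 array gave 857 to 1528 higher and 1435 to 2333 lower genes. The cause of these shifts was not tested, and the fits that left arrays out also had fewer arrays.

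Sign changes were in members near 0, apart from the macrophage covariate. With array weights the changes were 0.0638 for Atf4, 0.0151 for Eif2ak4, 0.059 for Asns and 0.0402 for Xpot. With the hepatocyte covariate the changes were 0.11 for Atf4, 0.029 for Asns and 0.0672 for Xpot. With the macrophage covariate the changes were 0.233 for Atf4, 0.119 for Ddit3, 0.0558 for Cebpg, 0.0951 for Eif2ak4, 0.0712 for Ppp1r15a, 0.0892 for Trib3, 0.228 for Asns, 0.0862 for Psat1, 0.154 for Phgdh, 0.13 for Psph, 0.0343 for Mthfd2, 0.0491 for Aldh18a1, 0.216 for Cth, 0.203 for Slc7a11, 0.0646 for Slc7a1, 0.0444 for Vldlr and 0.125 for Xpot. Without the 3 arrays the changes were 0.161 for Atf4, 0.0796 for Asns and 0.0989 for Xpot. Leaving out 1 array gave changes from -0.0555 to 0.0476 for Asns, from -0.0819 to 0.0293 for Atf4, from -0.0478 to 0.00687 for Eif2ak4 and from -0.0515 to 0.0384 for Xpot. No paired analysis was possible because the groups share no replicate numbers.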
